A study of Mus musculus with 6 samples.

Results

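The interferon-stimulated genes described here are 42 genes that cells switch on in answer to interferons, the secreted proteins that warn tissue of viruses and of stray nucleic acid. They were chosen by gene name from the 23449 genes of the deposited table. All 42 had a row there, and all 42 were among the 13698 genes with enough counts to be tested. By textbook knowledge, 31 answer mainly to type I interferons (the alpha and beta interferons), 4 to type II interferon (interferon gamma; Irf1, Gbp2, Gbp3 and Gbp7), and 7 clearly to both (Ifitm3, Parp14, Parp9, Dtx3l, Trim21, Zbp1 and Sp100).

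RNA from 6 cultured mammary cell lines of female FVB/N mice was sequenced. Of these, 3 carry the genotype EIC/WT (EIC 1, EIC 2 and EIC 3) and 3 the genotype 16IC/WT (16IC 1, 16IC 2 and 16IC 3). Every line grew in medium with 10% serum, EGF, insulin, pituitary extract and 10 ug/mL of doxycycline. Known background on the study, which the labels do not state, is that doxycycline drives wild-type ErbB2 (HER2) in EIC cells and the HER2 splice form without exon 16 in 16IC cells. By its title the series concerns that splice form, the nucleotide hydrolase ENPP1 and tumours poor in immune cells. No line without doxycycline and none treated with interferon is among the samples, so the form of the receptor and any other difference between these lines cannot be told apart. Each line is its own sample. Whether the lines come from separate animals, and what NT in the title of EIC 2 means, is not said in the labels, so p-values measure only the spread between these samples.

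As background, type I interferons bind the receptor made of IFNAR1 and IFNAR2, whose kinases JAK1 and TYK2 activate a complex that includes STAT2 and IRF9. This complex binds the interferon-stimulated response element (ISRE) in gene promoters. Interferon gamma binds IFNGR1 and IFNGR2, and the signal that follows acts through the gamma-activated site (GAS). In epithelial cells a low level of such signalling is common without added interferon, and tumour cells differ widely in how much of it they keep.

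The lines were not equally alike, which bears on every comparison below. Over the tested genes, Spearman correlation of log2 CPM was 0.989 between 16IC 1 and 16IC 2 but 0.874 and 0.88 between 16IC 3 and these, and it was 0.979 between EIC 1 and EIC 3 but 0.925 and 0.917 between EIC 2 and these. Library totals lay between 15621563 and 17468498 counts, close enough that depth differed little between lines. Of 14 leukocyte markers 7 were in the table, and Ptprc, which encodes the pan-leukocyte antigen CD45, stayed at or under 0.306 CPM in every line. The summed leukocyte markers ran from 15.1 to 47.8 CPM in EIC and from 12.8 to 19.7 CPM in 16IC. Without Cd68, which other cells also express, the sum was 0.285, 0.782 and 0.124 CPM in EIC 1 to 3. It was 4.52, 5.39 and 0.649 CPM in 16IC 1 to 3. Csf1r made up most of it in 16IC 1 and 16IC 2 (3.735 and 4.65 CPM) and had no count in 16IC 3. Of 5 endothelial markers 4 were in the table and summed to 0.241 to 3.82 CPM in EIC and 0.181 to 1.1 CPM in 16IC. Of 8 fibroblast markers 6 were in the table, which summed to 12.1 to 105 CPM in EIC and to 11.4 to 35.4 CPM in 16IC, with Pdgfra the main part in EIC 1 and EIC 3. The sum hides that of the 5 tested, 2 were lower and 3 higher in 16IC. Col1a1, of the latter, had 0.513 to 1.99 CPM in EIC and 3.13 to 4.995 CPM in 16IC. All 8 epithelial markers were in the table, at a sum of 3110, 2516 and 3053 CPM in EIC 1 to 3 and of 7165, 6826 and 1470 CPM in 16IC 1 to 3, so that 16IC 3 was apart from the other 16IC lines here as well. The keratin genes Krt8 and Krt18 stood at or above 563 CPM in every line, whereas Krt5 was at or under 0.0612 CPM in every line. Krt14 and Cdh1, also on this list, were higher in 16IC in the authors' comparison (log2 fold changes 5.99 and 2.34). The adhesion gene Epcam had 0.456, 1.08 and 3.79 CPM in EIC 1 to 3 against 1160, 1345 and 51.1 CPM in 16IC 1 to 3, and Cldn7 had at most 0.56 CPM in EIC against 356, 393 and 2.85 CPM in 16IC 1 to 3. Krt19 went the other way, with 7.7, 198 and 10.1 CPM in EIC 1 to 3 and at most 0.649 CPM in 16IC. Mitochondrial genes held 0.926 to 1.5% of the counts in EIC and 2.0 to 3.39% in 16IC. The part of these marker and mitochondrial differences in the interferon-stimulated genes was not tested.

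Promoter sequences are shown first because they carry the letters through which the type I and type II responses are known to act. The letters searched, on both strands, were GAAANNGAAA for the ISRE core and TTCNNNGAA for the GAS core, where N is any base. RefSeq promoter windows (GRCm38.p6, 250 bases before to 50 after each start) matched 33 of the 42 members. Usp18, Mx1, Mx2, Oas2, Dhx58, Parp14, Parp9, Rtp4 and Zbp1 had no window. The ISRE letters were in 16 of the 33 members (48.5%) and in 3.99% of the 27025 genes with a window, and the GAS letters were in 9 members (27.3%) and in 9.55% of all genes. Either was in 20 members (60.6%) against 12.9%. With 3 bases between the GAAA blocks, which is not the ISRE core searched, the letters were in 7 members (21.2%) and in 3.17% of all genes. The higher share among members was thus not limited to the ISRE spacing. Matches can overlap, and a match is only a description of letters in the C57BL/6J reference, whereas the cells are FVB/N.

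By class, 11 of 25 matched type I members, 3 of 4 type II members and 2 of 4 members of both types held the ISRE letters. The GAS letters were in 6 of 25, 2 of 4 and 1 of 4. So both motifs were found in members of all 3 classes. Shown here are 6 members given line by line below, 3 of type I and then 3 of type II. Each is the 250 bases before the start, 5′ to 3′ along the gene, with every ISRE and GAS match in capitals. They lie at chr4:156200819-156201068 (Isg15, minus strand), chr19:34583279-34583528 (Ifit3, plus), chr5:120907526-120907775 (Oas1a, minus), chr3:142530086-142530335 (Gbp7, plus), chr3:142620413-142620662 (Gbp2, plus) and chr11:53769764-53770013 (Irf1, plus).
Isg15: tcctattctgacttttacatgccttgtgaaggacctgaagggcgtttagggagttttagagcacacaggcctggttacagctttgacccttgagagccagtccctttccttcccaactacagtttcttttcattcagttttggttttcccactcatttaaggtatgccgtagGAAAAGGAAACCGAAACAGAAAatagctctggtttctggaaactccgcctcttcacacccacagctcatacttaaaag
Ifit3: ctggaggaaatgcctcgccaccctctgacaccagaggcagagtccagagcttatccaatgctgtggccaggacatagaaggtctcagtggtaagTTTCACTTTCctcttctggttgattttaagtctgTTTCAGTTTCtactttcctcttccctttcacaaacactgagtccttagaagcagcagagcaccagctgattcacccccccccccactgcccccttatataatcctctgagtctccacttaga
Oas1a: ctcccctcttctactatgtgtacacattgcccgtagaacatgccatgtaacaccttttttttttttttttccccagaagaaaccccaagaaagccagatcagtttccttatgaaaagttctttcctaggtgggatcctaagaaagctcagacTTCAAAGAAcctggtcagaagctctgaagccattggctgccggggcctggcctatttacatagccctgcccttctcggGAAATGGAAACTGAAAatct
Gbp7: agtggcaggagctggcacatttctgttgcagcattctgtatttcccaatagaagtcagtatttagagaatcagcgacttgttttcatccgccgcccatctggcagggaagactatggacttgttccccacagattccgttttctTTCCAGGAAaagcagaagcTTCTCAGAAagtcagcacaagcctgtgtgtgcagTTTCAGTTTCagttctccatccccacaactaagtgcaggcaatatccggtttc
Gbp2: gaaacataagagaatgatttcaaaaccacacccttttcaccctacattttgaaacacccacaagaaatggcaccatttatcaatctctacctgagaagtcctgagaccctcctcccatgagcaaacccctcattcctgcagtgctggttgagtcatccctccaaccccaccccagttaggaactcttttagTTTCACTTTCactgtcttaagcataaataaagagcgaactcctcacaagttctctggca
Irf1: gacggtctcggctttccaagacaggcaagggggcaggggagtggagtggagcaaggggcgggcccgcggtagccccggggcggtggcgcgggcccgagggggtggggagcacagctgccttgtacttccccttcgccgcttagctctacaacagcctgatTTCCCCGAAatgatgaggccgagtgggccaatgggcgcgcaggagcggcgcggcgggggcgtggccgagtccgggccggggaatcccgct
With the start counted as 0, the Isg15 promoter held 3 ISRE matches that run into one another, with first bases at -78, -72 and -66. In Ifit3 the ISRE matches began at -156 and -122, and both read TTTC to TTTC because the core lies on the other strand. Oas1a had overlapping ISRE matches at -20 and -14 and a GAS match at -98. Gbp7 had GAS matches at -106 and -87 and an ISRE match at -53, while Gbp2 had an ISRE match alone, at -59. Irf1 was the type II member with a GAS match (TTCCCCGAA at -90) and no ISRE match.

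The comparison of 16IC with EIC asks how the interferon-stimulated genes stand in cells with the shorter HER2 form. All 42 members had a negative fitted log2 fold change (16IC over EIC), where 50.3% of all tested genes did. Their median was -0.89, with a range from -3.63 to -0.06, against -0.00 over all tested genes. These folds were not independent, since the members answer to the same signals and 18 of them lie in 7 clusters of neighbouring genes. In RNA from whole cultures, fewer cells that express a gene and less RNA per cell cannot be told apart. Few differences passed the adjusted threshold. By the quasi-likelihood test of edgeR, Benjamini-Hochberg adjusted over all tested genes, 1 member, Ifit2, was called lower at an adjusted p under 0.05, where 1.2% of all tested genes were called lower. At an unadjusted p under 0.05, 15 members were lower (14 of type I, 1 of both types and 0 of type II), against 10.1% of all genes. For 15 members every 16IC line was below every EIC line, against 14.2% of all genes. These 15 were 12 type I members, 2 type II members and 1 of both.

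**Figure D1:**
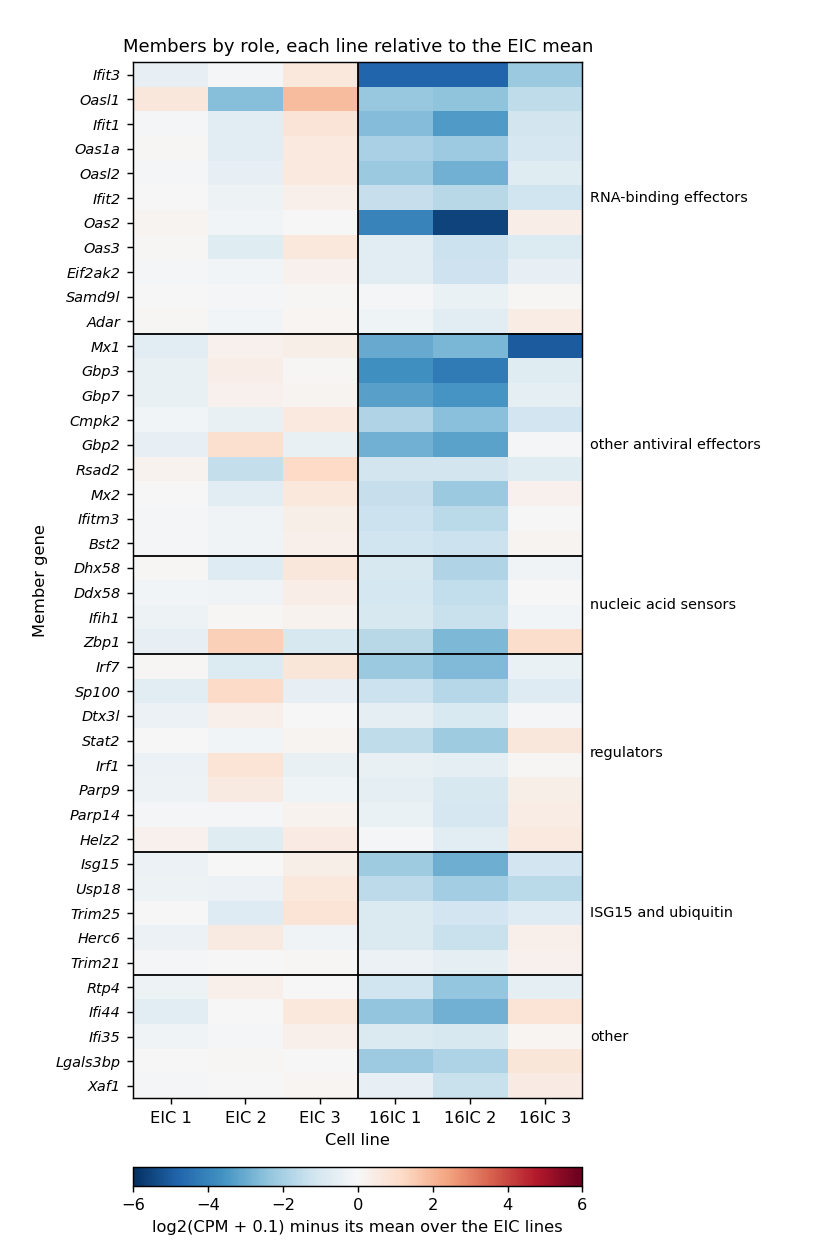
Level of each of the 42 members (rows, grouped by role) in the 6 lines (columns), as log2(CPM + 0.1) minus its mean over the 3 EIC lines, so that blue is lower and red higher than the EIC mean. 16IC 1 and 16IC 2 are blue for nearly all members, whereas 16IC 3 is blue for part of them and pale or red for the rest.

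The number of calls depended on the tool and on single lines. Limma-voom called 2 members lower (Ifit2 and Ifit3; 1.06% of all genes) and DESeq2 called 10 (7.04% of all genes). The same 10 had an adjusted p under 0.05 in the authors' deposited table, where 3.98% of the table's genes were lower at that threshold. The authors' comparison is of the same 6 samples, so it is not separate evidence. These 10 members are Ifit1, Ifit2, Ifit3, Isg15, Usp18, Mx1, Oasl1, Oasl2, Oas1a and Cmpk2, all of type I. Without 16IC 3, edgeR called 22 members lower (6.82% of all genes) and the median moved to -1.61. In that fit the 16IC group is the pair 16IC 1 and 16IC 2, which correlate at 0.989, and calls over all genes went from 335 to 1913. With this pair averaged to 1 sample and 16IC 3 kept, a fit chosen after seeing the data, edgeR called 0 members and 0 genes. Each adjusted p given below without 16IC 3 thus rests on closely alike 16IC lines. Without EIC 2 edgeR called 2, Ifit2 and Oasl1 (1.09% of all genes). Without EIC 1, EIC 3, 16IC 1 or 16IC 2, edgeR called 0 members. Over all genes it then called 0, 0, 5 and 0, so a call lost in these fits is not particular to the gene. In these fits 11, 8, 8 and 9 members were lower at an unadjusted p under 0.05, as were 7.61%, 7.14%, 6.74% and 6.83% of all genes tested. The other tools were not run on 5 lines.

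RNA-binding effectors are the largest role, and Ifit2 belongs to it. These 11 members encode proteins that bind viral or double-stranded RNA: the IFIT proteins that hold back translation of foreign RNA, the 2′-5′-oligoadenylate synthetases (OAS) that activate RNase L, the protein kinase PKR (Eif2ak2), the RNA editor ADAR1 (Adar) and SAMD9L. Their median log2 fold change was -1.43, and 8 of the 11 were lower at an unadjusted p under 0.05 (10.1% of all tested genes). The groups were apart in 6, with 16IC lower (14.2% of all tested genes).

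Ifit2 (chr19:34550694-34576419, plus strand, GRCm38) stood at 54.9, 43.4 and 66.6 CPM in EIC 1 to 3 and at 20.7, 16.8 and 23.8 CPM in 16IC 1 to 3. The 3 lines of each group lay close together and the groups did not overlap. The fitted level was 2.69-fold lower in 16IC (log2 fold change -1.43, SE 0.24, adjusted p = 0.0467). The call was lost without EIC 1 (adjusted p = 0.163), EIC 3 (0.165), 16IC 1 (0.185) or 16IC 2 (0.188), and with DESeq2 the adjusted p was 3.9e-05. Each fit without 1 of these lines called at most 5 of all genes.

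Ifit3, its neighbour on chromosome 19, had the wider gap: 61.0, 77.7 and 132 CPM in EIC 1 to 3 against 3.01, 3.06 and 18.2 CPM in 16IC 1 to 3. In 16IC 1 and 16IC 2 it was almost silent, and 16IC 3 held 5.98 times their mean. The fitted log2 fold change was -3.48 (SE 0.84, adjusted p = 0.0844), and -4.89 (SE 0.45, adjusted p = 0.00749) without 16IC 3. Ifit1, the third member of the cluster, ran from 78.9 to 211 CPM in EIC and was 20.4, 11.6 and 58.8 CPM in 16IC 1 to 3 (log2 fold change -2.16, SE 0.68, adjusted p = 0.136). All 3 IFIT genes were therefore lower in each 16IC line than in any EIC line, with 16IC 3 the highest of the 16IC lines. The labels do not say how reads shared by near-identical copies were counted, so Ifit3 (with Ifit3b) and Oas1a (with Oas1g) are uncertain.

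Among the OAS genes, Oas1a had 94.1, 55.3 and 135 CPM in EIC 1 to 3 and 22.8, 19.3 and 43.8 CPM in 16IC 1 to 3 (log2 fold change -1.73, SE 0.45, adjusted p = 0.0957). Oasl2, which encodes an OAS-like protein, had 264, 199 and 414 CPM in EIC 1 to 3 and 60.0, 37.8 and 169 CPM in 16IC 1 to 3. Both had groups apart, with 16IC 3 closest to EIC. Oasl1, whose product represses translation of Irf7 mRNA, split the EIC lines instead: 175, 18.6 and 416 CPM in EIC 1 to 3 against 22.8, 20.7 and 38.0 CPM in 16IC 1 to 3. EIC 2 was the lowest of all 6 lines for it, so the groups overlapped. Its log2 fold change was -2.90 (SE 1.01, adjusted p = 0.16), and -3.45 (adjusted p = 0.0478) without EIC 2.

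Oas3 overlapped by a narrow margin, since EIC 2 at 206 CPM was below 16IC 1 at 211 CPM. The other EIC lines had 359 and 526 CPM, and 16IC 2 and 16IC 3 had 138 and 192 CPM. Eif2ak2 had a small but even difference, with 134, 125 and 167 CPM in EIC 1 to 3 and 89.5, 59.7 and 101 CPM in 16IC 1 to 3 (log2 fold change -0.77, SE 0.25, adjusted p = 0.141).

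Oas2, beside Oas1a and Oas3 on chromosome 5, had the largest ratio of 16IC 3 to the mean of 16IC 1 and 16IC 2 of all 42 members, at 32.0 times. It had 107, 84.0 and 92.6 CPM in EIC 1 to 3, 5.84 and 1.90 CPM in 16IC 1 and 16IC 2, and 124 CPM in 16IC 3, the highest of all 6 lines. DESeq2 gave it no adjusted p, and without 16IC 3 its log2 fold change was -4.61 (SE 0.55, adjusted p = 0.0118). Samd9l and Adar differed least in this role, with log2 fold changes of -0.13 and -0.09.

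**Figure D2:**
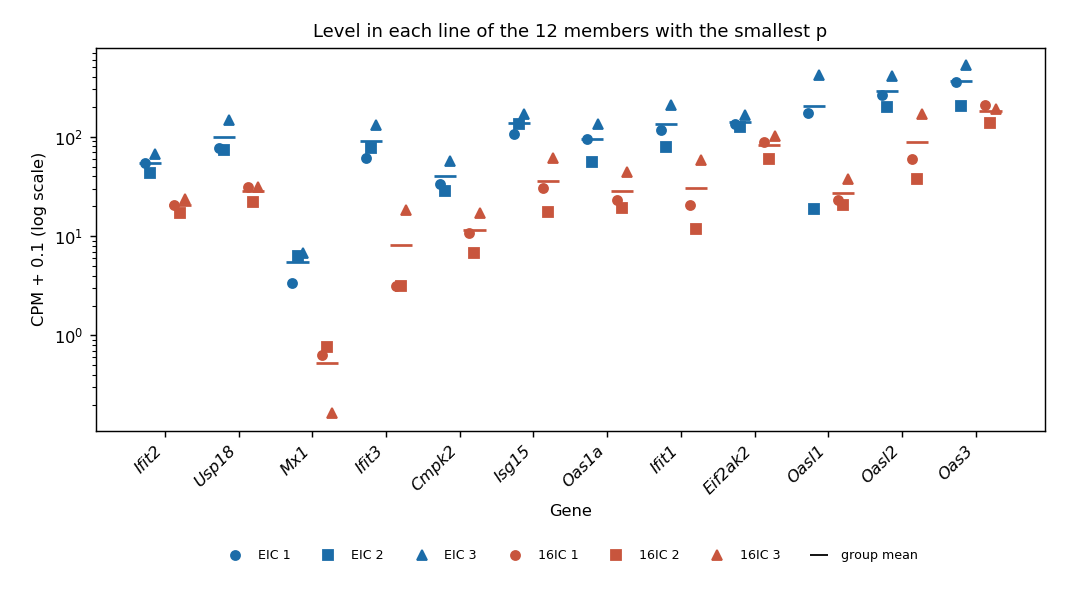
CPM plus 0.1, on a log scale, in each of the 6 lines for the 12 members with the smallest p, with a dash at each group's mean. For Ifit2 the 16IC lines sit together between 16.8 and 23.8 CPM, while for Oasl1 the blue square of EIC 2, at 18.6 CPM, lies at the level of the 16IC lines.

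The other antiviral effectors are 9 members that act in varied ways. They include the MX dynamin-like GTPases, the guanylate-binding proteins (GBP) that attack pathogen vacuoles, viperin (Rsad2) and its partner kinase CMPK2, tetherin (Bst2) and IFITM3, which blocks fusion at the endosome. Their median log2 fold change was -1.50, and the groups were apart in 4 of 9, with 16IC lower (14.2% of all tested genes). By level per length (CPM per kb of the gene length in the table), Ifitm3 and Bst2 were the most abundant of all 42 members, at 775 and 479 in EIC and 438 and 307 in 16IC.

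Mx1 was the least abundant member per length, at 1.43 CPM per kb in EIC. It had 3.25, 6.26 and 6.71 CPM in EIC 1 to 3 and 0.542, 0.673 and 0.0649 CPM in 16IC 1 to 3, which in 16IC were 9, 11 and 1 counts. It was the 1 member of the 42 whose level in 16IC 3 was below the mean of 16IC 1 and 16IC 2. The fitted log2 fold change was -3.63 (SE 0.80, adjusted p = 0.0708), and -3.14 (adjusted p = 0.0232) without 16IC 3. Cmpk2 had 33.6, 28.3 and 57.6 CPM in EIC 1 to 3 and 10.7, 6.67 and 16.9 CPM in 16IC 1 to 3 (log2 fold change -1.80, SE 0.44, adjusted p = 0.0871).

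The GBP members, which lie side by side on chromosome 3, are the type II members among the effectors. Gbp7 (chr3:142530342-142550149) had 106, 175 and 165 CPM in EIC 1 to 3, 15.2 and 12.5 CPM in 16IC 1 and 16IC 2, and 97.9 CPM in 16IC 3. Gbp3 (chr3:142560026-142573209) had 133, 241 and 192 CPM in EIC 1 to 3, 14.0 and 9.55 CPM in 16IC 1 and 16IC 2, and 111 CPM in 16IC 3. For both, 16IC 3 lay just under the lowest EIC line, and the other 16IC lines lay far under it. Gbp2 (chr3:142620602-142638008) had 126, 349 and 133 CPM in EIC 1 to 3, 24.1 and 19.6 CPM in 16IC 1 and 16IC 2, and 172 CPM in 16IC 3, so that 16IC 3 lay between EIC lines. With all 6 lines none was called (log2 fold changes -1.83, -2.08 and -1.50, with SE 0.83, 0.96 and 0.94 and adjusted p = 0.257, 0.261 and 0.399 for Gbp7, Gbp3 and Gbp2). Without 16IC 3, with the closely alike 16IC 1 and 16IC 2 alone, all 3 were called. The log2 fold changes were then -3.43, -4.00 and -3.21 (adjusted p = 0.00691, 0.00753 and 0.0277). The EIC mean was 10.8, 16.0 and 9.26 times the mean of 16IC 1 and 16IC 2. GBP genes resemble one another, so their counts may share reads.

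Ifitm3 and Bst2 were also low in 16IC 1 and 16IC 2, with 16IC 3 between EIC 1 and EIC 3, but among the EIC lines both were highest in EIC 3 and lowest in EIC 2. Ifitm3 ran from 443 to 660 CPM in EIC and had 211, 166 and 513 CPM in 16IC 1 to 3. Bst2 ran from 366 to 527 CPM in EIC and had 185, 173 and 475 CPM in 16IC 1 to 3. Both were called without 16IC 3 (adjusted p = 0.0243 and 0.0229) and not with it (0.346 and 0.44). Mx2 and Rsad2 were called in neither fit.

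ISG15 and its helpers make up the next group, with 5 members of the ubiquitin-like system. Isg15 encodes the ubiquitin-like modifier, Usp18 the protease that removes it and also dampens IFNAR2 signalling, and Herc6, Trim25 and Trim21 are ubiquitin-type ligases. Isg15 (chr4:156199424-156200818) had 106, 135 and 170.4 CPM in EIC 1 to 3 and 30.2, 17.4 and 60.7 CPM in 16IC 1 to 3 (log2 fold change -1.92, SE 0.48, adjusted p = 0.0882). Usp18 (chr6:121245906-121270917) had 76.9, 73.3 and 147 CPM in EIC 1 to 3 and 31.2, 22.2 and 30.9 CPM in 16IC 1 to 3. The groups were apart for both, and for Usp18 the 3 16IC lines lay within a narrow range. Its log2 fold change of -1.81 (SE 0.33) came just over the threshold, at an adjusted p of 0.0526, and it was called without 16IC 3 (0.0398) and by DESeq2 (9.6e-05). Trim25 also had groups apart (log2 fold change -1.07, adjusted p = 0.187), whereas Herc6 and Trim21 overlapped.

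The 4 nucleic acid sensors detect foreign or misplaced RNA and DNA and set off interferon production. Ddx58 (RIG-I) had 221, 210.3 and 323 CPM in EIC 1 to 3 and 118, 88.2 and 244 CPM in 16IC 1 to 3. Ifih1 (MDA5) had 66.3, 85.7 and 93.1 CPM in EIC 1 to 3 and 41.8, 32.4 and 72.6 CPM in 16IC 1 to 3. In both, 16IC 1 and 16IC 2 were below every EIC line and 16IC 3 was within the EIC range. Dhx58 (LGP2), which tunes those sensors, had 63.1, 35.6 and 98.2 CPM in EIC 1 to 3 and 31.5, 17.0 and 52.5 CPM in 16IC 1 to 3. Zbp1, a sensor of Z-form nucleic acid that can trigger cell death, had 35.0, 134 and 25.2 CPM in EIC 1 to 3 and 15.7, 7.59 and 102 CPM in 16IC 1 to 3. EIC 2 and 16IC 3 stood out high for Zbp1, each several-fold above the other lines of its group. None of the sensors was called with all 6 lines (log2 fold changes -0.75, -0.74, -0.96 and -0.63, adjusted p = 0.344, 0.254, 0.329 and 0.776 for Ddx58, Ifih1, Dhx58 and Zbp1). Without 16IC 3, Ddx58 and Ifih1 were called (-1.29 and -1.14, adjusted p = 0.0384 and 0.0346).

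Regulators made up 8 members: the transcription factors Irf7, Irf1 and Stat2, the nuclear body protein Sp100, the pair Parp9 and Dtx3l that modifies chromatin, Parp14 and the coactivator Helz2. Irf1, a type II member and the factor through which interferon gamma reaches many later targets, had 58.7, 132 and 55.8 CPM in EIC 1 to 3 and 56.2, 49.6 and 80.6 CPM in 16IC 1 to 3. EIC 2 alone was high, and the groups overlapped. Its log2 fold change of -0.40 (SE 0.40, adjusted p = 0.601) turned to 0.11 without EIC 2. Irf7, the factor that amplifies alpha interferon production, averaged 233 ± 118 CPM in EIC and 79.6 ± 69.96 CPM in 16IC (SD, n = 3 each) and was called without 16IC 3 alone (log2 fold change -2.57, adjusted p = 0.0349). Stat2, a part of the type I complex, had 55.3 and 35.6 CPM in 16IC 1 and 16IC 2 against 140 to 175 CPM in EIC, but 247 CPM in 16IC 3. Sp100 had groups apart, with 120.7 CPM in EIC 2 and 34.1 and 38.0 CPM in the other EIC lines. Helz2 had the smallest fitted difference of the 42 (log2 fold change -0.06).

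The remaining 5 members (Rtp4, Ifi44, Ifi35, Lgals3bp and Xaf1) have varied or less settled roles. Rtp4 had groups apart (log2 fold change -1.19, adjusted p = 0.191). Lgals3bp, a secreted glycoprotein, came next to Bst2 in level per length in EIC (253 CPM per kb). It ranged from 700 to 752 CPM in EIC, was low in 16IC 1 and 16IC 2 (160 and 203 CPM) and reached 1176 CPM in 16IC 3. Ifi44 likewise was lowest in 16IC 1 and 16IC 2 (23.6 and 16.6 CPM) and highest in 16IC 3 (214 CPM).

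The 3 16IC lines therefore differed among themselves over these genes. 16IC 1 was below every EIC line for 37 of the 42 members (31.4% of all tested genes), 16IC 2 for 39 (30.6%) and 16IC 3 for 16 (34.3%). 16IC 2 was the lowest of all 6 lines for 36 members (10.2% of all genes), and 16IC 3 was the highest 16IC line for 39 (44.3% of all genes). Summed over the 42 members, the level was 5852, 5815 and 8119 CPM in EIC 1 to 3, 2535 and 1974 CPM in 16IC 1 and 16IC 2, and 6155 CPM in 16IC 3. In 16IC 3, 10 members were above every EIC line, 16 were within the EIC range and 16 were below every EIC line. Those above were Oas2, Stat2, Ifi44, Xaf1, Parp14, Trim21, Lgals3bp, Samd9l, Helz2 and Adar. Those below held all 3 IFIT genes, Isg15, Usp18, Mx1, Oasl2, Oas1a, Oas3, Cmpk2, Gbp3, Gbp7, Trim25, Rtp4, Eif2ak2 and Sp100. Members of 1 cluster could part ways, since Oas3 and Oas1a were below and Oas2 beside them was above.

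**Figure D3:**
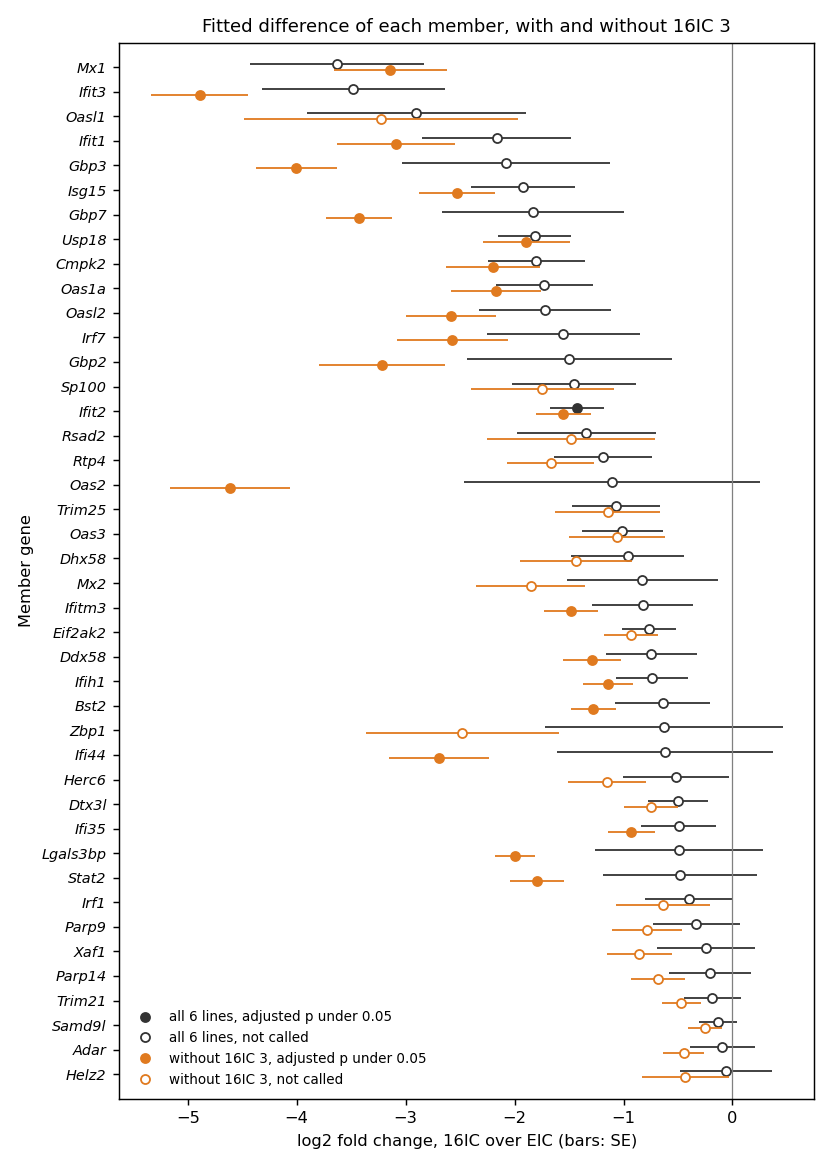
Fitted log2 fold change (16IC over EIC) of each of the 42 members with its SE, in the fit of all 6 lines (dark) and in the fit without 16IC 3 (orange), with filled points for an adjusted p under 0.05. Every point is left of 0, and 1 dark point against 22 orange points is filled.

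Type I and type II members differed in the line that stood highest, as a description without a test, since members are not replicates. In EIC, 27 of the 31 type I members were highest in EIC 3 (31.0% of all tested genes), whereas all 4 type II members were highest in EIC 2 (39.6% of all genes). Of the 7 members of both types, 4 were highest in EIC 2 (Parp9, Dtx3l, Zbp1 and Sp100) and 3 in EIC 3. The median log2 ratio of EIC 2 to the mean of EIC 1 and EIC 3 was -0.35 for type I, 0.88 for type II and 0.45 for both. In EIC 2, Oasl1 stood at 0.0629 times the mean of EIC 1 and EIC 3, the lowest ratio of the 42, and Gbp2 at 2.69 times, the highest of the type II members. Zbp1 and Sp100, of both types, were higher still, at 4.45 and 3.35 times. Gbp2, Gbp3 and Gbp7 are neighbours and cannot count as separate observations. The list of type I genes outside the members did not share this split, with 15 of 38 highest in EIC 3 and 19 in EIC 2. That list, unlike the members, had no separate class for genes of both types.

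In 16IC, both classes were low in 16IC 1 and 16IC 2, and 16IC 3 was above their mean for 30 of 31 type I and all 4 type II members. The median log2 ratio of 16IC 3 to the mean of the other 16IC lines was 1.11 for type I and 2.89 for type II. The class medians of the fitted log2 fold change were -1.01 for type I, -1.66 for type II and -0.50 for both with all lines, and -1.67, -3.32 and -0.78 without 16IC 3. So the type II median lay further from 0, while no type II member passed an unadjusted p under 0.05 with all lines. The 22 members called without 16IC 3 were 18 of 31 type I, 3 of 4 type II (Gbp2, Gbp3 and Gbp7) and 1 of 7 of both types (Ifitm3).

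**Figure D4:**
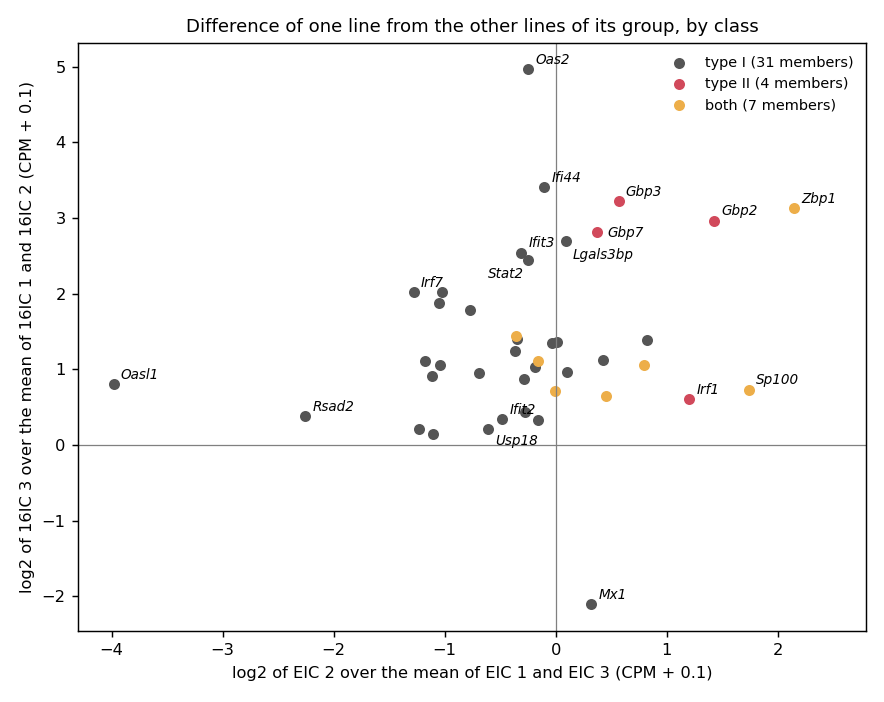
Each point is 1 member, placed by the log2 ratio of EIC 2 to the mean of EIC 1 and EIC 3 (x axis) and of 16IC 3 to the mean of 16IC 1 and 16IC 2 (y axis), with 0.1 CPM added, and coloured by class. The 4 type II members lie right of 0 on the x axis, most type I members lie left of it, and Mx1 alone lies below 0 on the y axis.

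Genes of the interferon pathway that are no members were listed by step: ligands, receptors, signal carriers, brakes and inducers. Of 59 listed, 41 were in the table and 36 were tested, with 19 lower (50.3% of all tested genes) and 17 higher in 16IC. By edgeR 2 were called lower (1.2% of all tested genes) and 2 higher (171 of the 13689 tested genes with a unique symbol). Of 21 ligand genes 4 were in the table (Ifnb1, Ifna13, Ifne and Ifnz), and none had enough counts to be tested. Ifnb1, which encodes interferon beta, had 12 counts over the EIC lines, all in EIC 3 (0.746 CPM), and 2 counts over the 16IC lines. EIC 3, in which most type I members were highest among the EIC lines, was the 1 line with more than 2 Ifnb1 counts. That level is too low for a comparison, and a link between Ifnb1 and these members was not tested.

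Of the 6 receptor genes edgeR called 0 (2 at an unadjusted p under 0.05), limma-voom 1 and DESeq2 2, all higher in 16IC. Of all 13698 tested genes, these tools called 335, 287 and 2098 in either direction. Ifnar1 was even, with 64.2, 90.6 and 84.1 CPM in EIC 1 to 3 and 67.9, 78.4 and 78.4 CPM in 16IC 1 to 3. Ifnar2 had 35.2, 49.2 and 47.9 CPM in EIC 1 to 3 and 15.3, 19.3 and 69.3 CPM in 16IC 1 to 3, with 16IC 3 the highest 16IC line, as for most members. Ifngr1 had 56.3, 99.0 and 61.9 CPM in EIC 1 to 3 and 77.5, 87.1 and 149 CPM in 16IC 1 to 3, and Ifngr2 was likewise highest in EIC 2 and 16IC 3 (73.4 and 73.5 CPM). Among the EIC lines all 6 receptor genes were highest in EIC 2 (39.6% of all tested genes), so this was not particular to the interferon gamma receptor. Ifnlr1, the specific chain of the type III interferon receptor, was near silent in EIC (1.54, 4.93 and 0.249 CPM) and present in 16IC (30.8, 41.4 and 29.5 CPM), at an adjusted p of 0.0855 in edgeR, 0.0484 in limma-voom and 0.000121 in DESeq2. Il10rb, its partner chain, had 18.3 to 21.3 CPM in EIC and 30.8 to 41.6 CPM in 16IC (adjusted p = 0.0772 in edgeR, 0.0828 in limma-voom and 0.00234 in DESeq2). Both chains thus had groups apart in the direction opposite to the members, and whether they passed the threshold depended on the tool.

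Of 10 signal carriers tested, 5 were lower and 5 higher in 16IC, and edgeR called 0 (1 at an unadjusted p under 0.05). That gene, Irf3, a factor that switches on interferon genes, had the only groups apart, with 63.1, 52.3 and 52.3 CPM in EIC 1 to 3 and 76.1, 81.6 and 76.9 CPM in 16IC 1 to 3 (log2 fold change 0.48, SE 0.16, adjusted p = 0.142, and 0.0479 with DESeq2). Irf9 had 47.9, 106 and 54.5 CPM in EIC 1 to 3 and 41.3, 29.5 and 51.0 CPM in 16IC 1 to 3 (log2 fold change -0.77, adjusted p = 0.281). Among the EIC lines, 4 of the 10 signal carriers were highest in EIC 2 (39.6% of all tested genes), and Irf9 was 1 of them.

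Of the 9 brakes of the pathway edgeR called 2 lower (1.2% of all tested genes), and they were lower in all 3 16IC lines. Socs1, the main inhibitor of JAK kinases at interferon receptors, had 22.4, 17.2 and 14.1 CPM in EIC 1 to 3 and 4.64, 2.94 and 3.05 CPM in 16IC 1 to 3 (log2 fold change -2.33, SE 0.34, adjusted p = 0.039). Socs3, an inhibitor that acts mostly on IL-6-type receptors, had 41.8, 46.7 and 55.3 CPM in EIC 1 to 3 and 12.5, 12.7 and 16.7 CPM in 16IC 1 to 3 (log2 fold change -1.78, SE 0.22, adjusted p = 0.036). For both, 16IC 3 was close to the other 16IC lines, and the other 7 brakes were not called. Called higher were Tlr3, an endosomal sensor of double-stranded RNA, with 26.2, 31.6 and 27.1 CPM in EIC 1 to 3 and 156, 146 and 79.5 CPM in 16IC 1 to 3 (log2 fold change 2.17, SE 0.29, adjusted p = 0.0369), and Ikbke, a kinase that activates IRF3, with a log2 fold change of 1.21 (SE 0.21, adjusted p = 0.0461). Leaving out 1 line raised the adjusted p of these 4 genes to at most 0.171 (Socs1), 0.163 (Socs3), 0.161 (Tlr3) and 0.185 (Ikbke). The fits without EIC 1, EIC 3, 16IC 1 or 16IC 2 called at most 5 of all genes. Of the 11 inducers tested, groups were apart in 2 with 16IC higher and in 2 with 16IC lower (14.2% of all tested genes were lower so). The lower inducers, Ticam1 and Myd88, were not called (log2 fold changes -0.83 and -0.82, adjusted p = 0.14 and 0.17 in edgeR). Chosen after its values were seen, since ENPP1 breaks down the messenger between them, the pair Mb21d1 (cGAS) and Tmem173 (STING) was not called (log2 fold changes -0.55 and 0.48, adjusted p = 0.529 and 0.404).

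**Figure D5:**
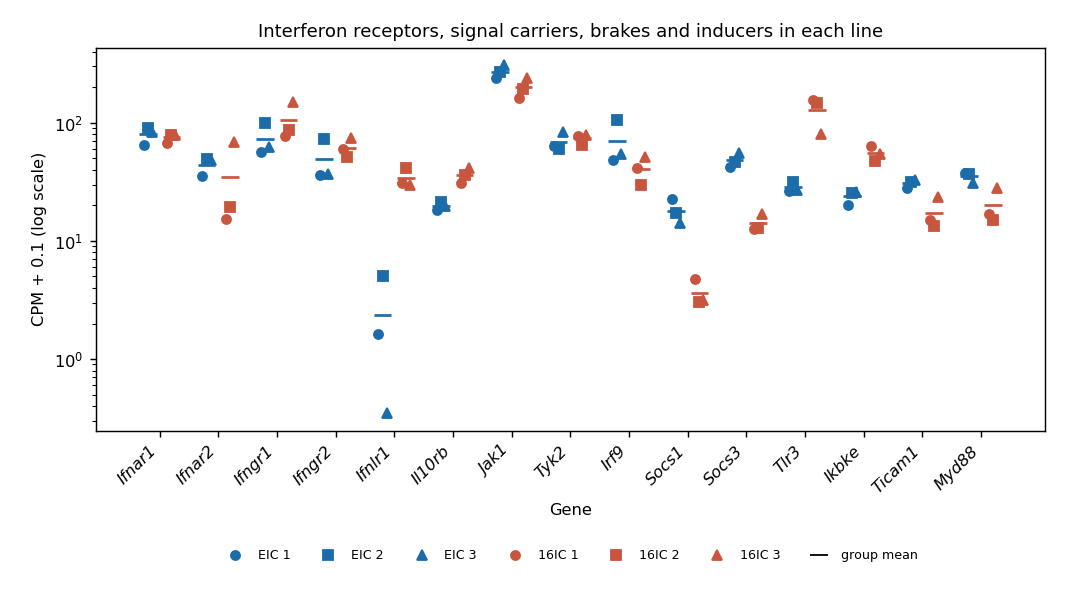
CPM plus 0.1, on a log scale, in each of the 6 lines for 15 pathway genes that are no members, with a dash at each group's mean. Socs1, Socs3, Ticam1 and Myd88 are lower and Ifnlr1, Il10rb, Tlr3 and Ikbke higher in every 16IC line than in any EIC line. For Ifnar2, 16IC 3 is the highest 16IC line.

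Other interferon-stimulated genes, outside the 42, were mostly lower in 16IC as well. Of 61 listed, 60 were in the table and 54 were tested. Of these, 45 were lower (50.3% of all tested genes) and 9 higher, with a median log2 fold change of -1.03. Slfn8, of the Schlafen family, was the 1 gene called by edgeR and by limma-voom, while DESeq2 called 11, all lower. Of all tested genes, these tools called 1.2%, 1.06% and 7.04% lower. In edgeR the adjusted p of Slfn8 was 0.0432 (at most 0.174 with 1 line left out), with 49.5, 72.7 and 70.2 CPM in EIC 1 to 3 and 26.9, 18.9 and 23.2 CPM in 16IC 1 to 3. Cxcl10, a chemokine that draws T cells, was low throughout, at 3.59, 4.57 and 3.05 CPM in EIC 1 to 3 and 0.904, 0.49 and 0.843 CPM in 16IC 1 to 3 (log2 fold change -2.31, SE 0.42, adjusted p = 0.0518 in edgeR and 0.000236 in DESeq2). Oas1g, the third by p among type I genes, had groups apart (log2 fold change -1.52, adjusted p = 0.0653 in edgeR and 0.000623 in DESeq2).

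Of the type II genes outside the members, 16 were tested, 14 had a negative log2 fold change (50.3% of all tested genes) and 0 were called by edgeR or limma-voom. By edgeR 3 were lower at an unadjusted p under 0.05 (10.1% of all genes) and 7 were called lower without 16IC 3 (6.82%), and DESeq2 called 4 lower (7.04%). The 3 with the smallest p were Irgm2, Igtp and Tgtp2, GTPases that interferon gamma induces against intracellular pathogens. Irgm2 had 143, 190.1 and 152 CPM in EIC 1 to 3 and 41.98, 23.4 and 87.6 CPM in 16IC 1 to 3 (log2 fold change -1.66, adjusted p = 0.116). Igtp had 116, 228 and 95 CPM in EIC 1 to 3 and 33.3, 22.9 and 72.3 CPM in 16IC 1 to 3 (-1.77, adjusted p = 0.125). Tgtp2, whose counts may be shared with its copy Tgtp1, had 59.8 CPM in EIC 2 and 5.93 and 6.34 CPM in the other EIC lines. In 16IC 1 to 3 it had 2, 4 and 47 counts (log2 fold change -4.40, SE 1.57, adjusted p = 0.168 in edgeR). DESeq2 gave Tgtp2 no adjusted p. Of these 16 genes, 14 were highest in EIC 2 among the EIC lines, with a median log2 ratio of 1.24 to the mean of EIC 1 and EIC 3, and all 16 were highest in 16IC 3 among the 16IC lines. These shares stand beside 39.6% and 44.3% of all tested genes. The type I genes outside the members were split otherwise than the type I members: of 38 tested, 19 were highest in EIC 2 among the EIC lines and 15 in EIC 3, with a median log2 ratio of EIC 2 to the mean of EIC 1 and EIC 3 of 0.18. In both lists EIC 2 was thus most often the highest EIC line, and most genes of the type I list were not highest in EIC 3. Unlike the members, these lists had no class for genes of both types. The type I list can therefore hold genes that also answer to interferon gamma, and it does not show how type I genes in general stand. Both lists were drawn up with earlier results of these data known.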

How the data were processed

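RNA was sequenced from 6 cultured lines, 3 per group. Trimmomatic, STAR, HTSeq, limma and edgeR, with the builds GRCm38 and mm10, are named without versions or roles, per the submitters' processing notes, and the sources used here give no strandedness. The deposited table holds read counts by gene, a signal that the authors normalised by size factor, FPKM, and the authors' log2 fold change with p-value. Only the counts and the authors' comparison were used.

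Genes were kept by edgeR's filterByExpr (minimum count 10), scaled by TMM and tested as 16IC against EIC by the quasi-likelihood test in edgeR 4.0.16 (under R 4.3.3). A call is a Benjamini-Hochberg adjusted p under 0.05. CPM uses the TMM-scaled library. Library totals were 15621563 to 17468498 counts. Alternatives were DESeq2 1.42.0, limma-voom 3.58.1, other scalings and filters, and leaving out each line. The gene test was tried on simulated counts with the same dispersion for every gene. That simulation did not copy the unequal likeness of the lines, so it does not show how the test behaves with it.

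The members, their classes and roles, the other lists and the naming rule were chosen with earlier results of these data known. The rule names line by line the 12 members with the smallest p, the type II members and the sensors, and from each other list the called genes and the 3 with the smallest p, with set pathway genes named whatever their values. An item of that rule is not reported here. Other genes were named after their values were seen. The labels pair no lines, and replicate numbers follow accession order.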

Additional observations from a re-analysis of the deposited data

How the results depend on the processing

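Over 14 alternatives for each of the 42 members, 537 of 588 fitted values kept their direction and their side of the threshold, 32 newly passed it, 7 no longer did (all Ifit2) and 12 changed sign, none of them past the threshold. As log2 fold changes, leaving out 1 line gave -0.64 to 0.11 for Irf1 and -2.48 to 0.47 for Zbp1 (positive without EIC 2), and -0.68 to 0.077 for Parp14, -0.85 to 0.098 for Xaf1 and -0.45 to 0.12 for Adar (positive without 16IC 2). It gave -0.43 to 0.18 for Helz2, which was positive without 16IC 1 (0.0076), 16IC 2 (0.18), EIC 1 (0.03) or EIC 3 (0.17), and with upper-quartile factors (0.0085). With 16IC 1 and 16IC 2 averaged to 1 sample, which was chosen after seeing the data, Adar was at 0.055 and Helz2 at 0.097.

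The count of members called, 1 in edgeR, became 10 with DESeq2, 2 with limma-voom, 7 at an adjusted p threshold of 0.1 and 0 at 0.01. It was also 0 without a filter on low counts, with upper-quartile factors and with the averaged pair (19, 15 and 9 members lower at an unadjusted p under 0.05). Leaving out 1 line gave 0 to 22. Over all tested genes the count of 335 became 2098 with DESeq2, 223 without a filter, 1184 at a threshold of 0.1, 0 at 0.01 and 0 with the averaged pair (2257 at an unadjusted p under 0.05). Leaving out 1 line gave 0 to 1913. The median log2 fold change then ran from -1.61 to -0.56 for all members, from -1.67 to -0.65 for type I and from -3.32 to -1.23 for type II, with the lowest value without 16IC 3 and the highest without 16IC 2. The cause was not tested, except that each fit without a line has fewer samples. The median of all genes lay no further than 0.0537 from 0 under any setting run. No paired analysis was possible because the labels give the lines no shared replicate numbers.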
